A study of Mus musculus with 8 samples.

Results

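The stanniocalcin and pappalysin genes Stc1, Stc2, Pappa and Pappa2 were examined in cultured mouse tail tendon fibroblasts that lacked or kept scleraxis (Scx), a tendon transcription factor of the basic helix-loop-helix class. They are 4 of the 24982 genes in the deposited count table, matched by symbol, and all 4 passed the filter on low counts. The set was chosen by measured values, since the difference of Stc2 between ScxKO and ScxWT libraries was known when the genes were picked. Their differences between the groups are therefore given as a description, with no test.

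The cells came in 4 ScxKO libraries, numbered 2, 3, 4 and 5, with the genotype Scx-, and 4 ScxWT libraries, numbered 2, 3, 5 and 6, with the genotype Scx+. Cells of both groups were C57Bl/6 and had all been treated with 4HT (labelled 4HT treatment: yes), so no group without 4HT entered the comparison. The design set cells in which scleraxis was deleted beside cells that contain it. The sources used here do not give the promoter that drives the recombinase, the passage or the age of the mice. Nor do they say whether each library stands for its own animal or culture. The p-values therefore measure no more than the spread among these libraries, part of which may be technical.

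Stanniocalcins are secreted glycoproteins first known from fish, where they act on calcium handling, and in mammals they inhibit the pappalysins. Pappalysins are secreted metalloproteinases that cut insulin-like growth factor binding proteins (IGFBPs) and so free the growth factors Igf1 and Igf2 for their receptor. The protein of Pappa is known to cut the products of Igfbp2, Igfbp4 and Igfbp5, and that of Pappa2 to cut those of Igfbp3 and Igfbp5. In tendon, Igf1 is known as a signal for collagen synthesis and cell growth.

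Because Stc2 carried the largest difference of the set, the 250 bases before its RefSeq start are shown, from the RefSeq promoter table for GRCm38.p6 (chr11:31370062-31370311, minus strand, written 5′ to 3′). Capitals mark each match to the E-box CANNTG, the letters that basic helix-loop-helix factors are known to bind.
Stc2 promoter: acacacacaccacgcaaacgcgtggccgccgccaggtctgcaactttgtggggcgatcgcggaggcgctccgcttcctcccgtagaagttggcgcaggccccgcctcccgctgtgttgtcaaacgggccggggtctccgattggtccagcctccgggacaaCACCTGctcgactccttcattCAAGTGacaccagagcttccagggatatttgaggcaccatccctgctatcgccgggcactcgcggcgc
The window held 2 matches to the E-box, of which the first reads CACCTG at bases -89 to -84 and the second reads CAAGTG at bases -68 to -63 from the start. Of all 32536 promoter windows of this length, 66.2% held at least 1 such match, at a mean of 1.16 matches a window. GCGTG, a core of the hypoxia response element, matched 2 times, at -240 to -236 and -231 to -227, and 28.3% of windows held it. CCAAT matched once, on the opposite strand at -111 to -107, and 33.8% of windows held it. The other hypoxia core, ACGTG, held by 16.7% of windows, is not among these letters. The same holds of a core of the ATF4 site, TGATGNAA, which 3.4% of windows held. Both strands were searched for every motif, and no match overlapped that of another motif. The window's GC content was 64.4%, above that of 81.4% of windows, whose median was 52.4%, and it held 24 CpG against a median of 6. These matches describe letters only, since binding was not measured.

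The libraries held 17343228 to 25180790 gene counts. Scx itself, which checks the labels, had 3, 1, 2 and 3 counts in the ScxKO libraries, against 177, 132, 252 and 156 counts in the ScxWT libraries. The sources used here do not say which bases of Scx were deleted. ScxWT library 5 stood apart from the other ScxWT libraries on the second principal component, which took 12.9% of the variance, so several results are also given without it. Of the tendon fibroblast markers, 10 of 11 were tested and 9 fell in ScxKO libraries, the deleted Scx among them, where 14.5% of all genes tested fell. Their summed level ranged from 5870 to 6550 CPM (counts scaled to a common library size, with TMM factors) in ScxKO libraries and from 7880 to 10000 CPM in ScxWT libraries. Lum, listed with them, was under 1 CPM. Summed endothelial markers ranged from 49.5 to 54.1 CPM in ScxKO and from 68.3 to 86.4 CPM in ScxWT libraries, nearly all of it Tek, which fell. Kdr rose, to 3.07 CPM in ScxKO, against 2.18 CPM in ScxWT libraries (edgeR adjusted p = 0.0272), Cdh5 was not called, and Pecam1, Vwf and Emcn were under 1 CPM. The median log2 change of the tested endothelial markers was 0.18, opposite in sign to the difference of their sums. Summed adipocyte markers ranged from 91.3 to 101 CPM in ScxKO and from 69.4 to 86.6 CPM in ScxWT libraries. Fabp4 and Pparg of that list rose, Adipoq, Plin1 and Cidec were lower but not called, and the list's median log2 change was -0.36, likewise opposite in sign to the difference of its sums. Summed macrophage markers ranged from 24.3 to 28.0 CPM in ScxKO and from 22.2 to 24.6 CPM in ScxWT libraries. Most of it was Cd14, which was not called, at 15.1 CPM in ScxKO and 14.3 CPM in ScxWT libraries. Csf1r and Cd68 of that list rose, Mrc1 fell and Lyz2 was not called. Ptprc, Adgre1 and Itgam were under 1 CPM. The muscle markers Myod1 and Pax7 and the bone marker Ibsp were at 0 counts in every library. Of the same lists, Acta1 of muscle fell, at 30.1 CPM in ScxKO and 36.4 CPM in ScxWT libraries (edgeR adjusted p = 0.0281). Runx2 of bone also fell, at 36.3 CPM in ScxKO and 40.5 CPM in ScxWT libraries (edgeR adjusted p = 0.0353). The other muscle and bone markers were under 1 CPM. The part of these markers in the results on the 4 genes was not tested.

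Stc2, whose protein binds the Pappa protein covalently and blocks its protease activity, was the most abundant gene of the set per length and the one with the largest difference. It lies on GRCm38 chromosome 11, 31357307 to 31370074, minus strand (ENSMUSG00000020303.2), with no other annotated gene overlapping it. It had 1038, 1233, 1084 and 1516 counts in ScxKO libraries 2, 3, 4 and 5, against 411, 364, 396 and 433 counts in ScxWT libraries 2, 3, 5 and 6. As levels these were 52.5, 57.7, 62.9 and 68.2 CPM in ScxKO libraries, against 17.8, 19.5, 15.9 and 18.9 CPM in ScxWT libraries. Every ScxKO library lay above every ScxWT library, with a wide gap between the groups. Stc2 averaged 60.3 ± 6.74 CPM in ScxKO and 18.03 ± 1.56 CPM in ScxWT libraries (SD, n = 4 each), 3.35-fold higher in ScxKO. The log2 change of ScxKO over ScxWT from the edgeR fit was 1.75 ± 0.08 (SE). It was the 12th highest log2 change of the 13125 genes tested, 0.183% of which changed by more in either direction. Stc2 was picked with this difference known, so nothing is read from that rank. Leaving out single libraries moved the log2 change only between 1.68 and 1.81. In bulk RNA, fewer cells that hold a transcript and less of it per cell cannot be told apart, here and in every result that follows.

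Stc1, the paralog of Stc2 and likewise an inhibitor of the Pappa protein, was nearly silent. It lies on chromosome 14, 69029238 to 69041804, plus strand (ENSMUSG00000014813.9), and shares 229 exon bases with the antisense gene Gm41192, whose reads cannot be told apart from its own because the use of strand is not given. It had 9, 9, 15 and 9 counts in ScxKO libraries 2, 3, 4 and 5, against 20, 17, 6 and 24 counts in ScxWT libraries 2, 3, 5 and 6. The lowest value of all was a ScxWT library, so the groups overlapped. The exact Poisson 95% interval, which covers counting error only, ran from 8.40 to 24.7 for the 15 counts of ScxKO library 4, and from 2.20 to 13.1 for the 6 counts of ScxWT library 5. Stc1 averaged 0.538 ± 0.223 CPM in ScxKO and 0.767 ± 0.359 CPM in ScxWT libraries (SD, n = 4 each), and the log2 change was -0.52 (SE 0.39). Single libraries moved this value: it was -0.84 without ScxWT library 5, -0.81 without ScxKO library 4 and -0.31 without ScxWT library 6. The 2 stanniocalcin genes thus lay on different sides of 0, Stc2 by a wide margin and Stc1 by little more than its own standard error.

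Pappa, which encodes the pappalysin that cuts the Igfbp4 product, was expressed at a low level and was lower on average in ScxKO libraries. It lies on chromosome 4, 65124174 to 65357509, plus strand (ENSMUSG00000028370.7), and its annotated transcript has 22 exons. It had 196, 183, 140 and 157 counts in ScxKO libraries, against 300, 174, 290 and 257 counts in ScxWT libraries. The levels were 9.92, 8.56, 8.13 and 7.06 CPM in ScxKO libraries 2, 3, 4 and 5, against 12.99, 9.31, 11.7 and 11.2 CPM in ScxWT libraries 2, 3, 5 and 6. The groups overlapped in a single pair, since ScxKO library 2 lay above ScxWT library 3. Pappa averaged 8.42 ± 1.18 CPM in ScxKO and 11.3 ± 1.52 CPM in ScxWT libraries (SD, n = 4 each), and the log2 change was -0.43 (SE 0.11). It ranged from -0.52 to -0.35 with single libraries left out.

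Pappa2, which encodes the pappalysin that cuts the Igfbp3 and Igfbp5 products, differed little. It lies on chromosome 1, 158711727 to 158980490, minus strand (ENSMUSG00000073530.11), and shares 310 exon bases with the lincRNA 1600012P17Rik on the same strand. It had 33, 43, 36 and 47 counts in ScxKO libraries, against 44, 35, 38 and 41 counts in ScxWT libraries. The levels were 1.67, 2.01, 2.09 and 2.11 CPM in ScxKO libraries, against 1.91, 1.87, 1.53 and 1.79 CPM in ScxWT libraries. The ranges overlapped, with ScxKO library 2 below 3 of the 4 ScxWT libraries. Pappa2 averaged 1.97 ± 0.205 CPM in ScxKO and 1.78 ± 0.170 CPM in ScxWT libraries (SD, n = 4 each), and the log2 change was 0.16 (SE 0.16). It was 0.09 without ScxWT library 5.

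**Figure D1:**
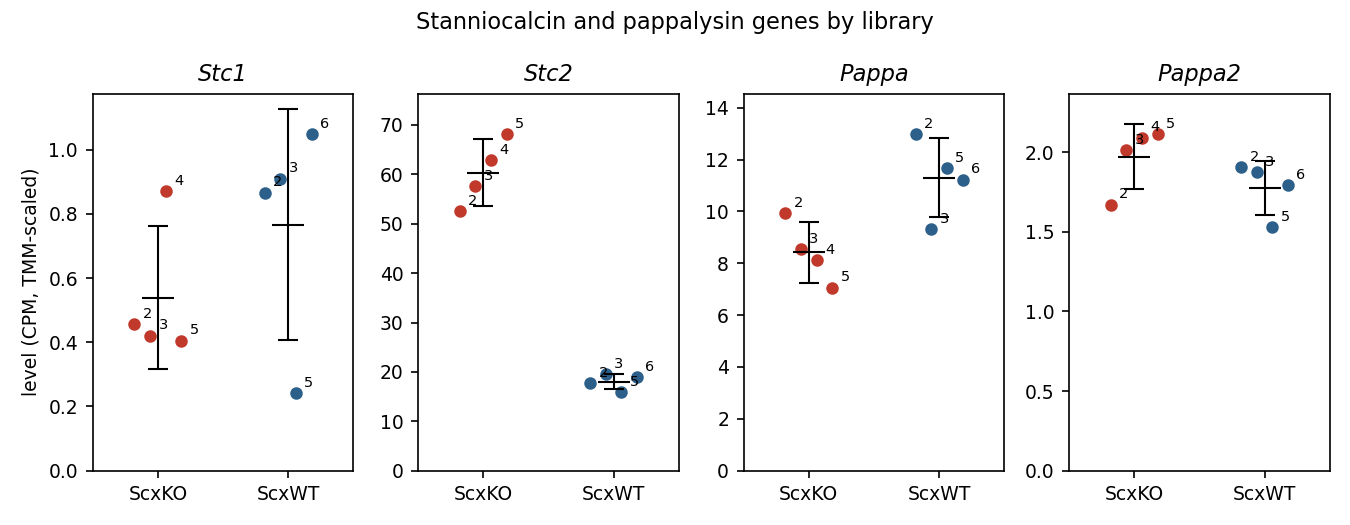
Level of each of the 4 genes in CPM (linear axes that start at 0 and differ between panels), with 1 labelled point per library, ScxKO left of ScxWT, and bars for the group mean ± SD (n = 4 each). The 4 ScxKO points of Stc2, from 52.5 to 68.2 CPM, lie above all 4 ScxWT points, while the groups overlap for Stc1, Pappa and Pappa2.

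In all, 1 of the 4 genes, Stc2, had every ScxKO library above every ScxWT library, as did 14.8% of the 13125 genes tested, and 14.3% of genes had every ScxKO library below. Since the genes were picked with this contrast known, nothing is read from that share. Within the ScxKO group, the library with the lowest Stc2 had the highest Pappa, and the library with the highest Stc2 had the lowest Pappa. That is a description of 4 libraries. In the authors' deposited table, 71 genes with no counts in any of the 8 libraries here have a mean normalized count of at least 10, so it was not made from these counts alone. The authors' deposited table lists log2 fold changes of 1.78 for Stc2, -0.54 for Stc1, -0.39 for Pappa and 0.07 for Pappa2, in the direction in which Scx has -5.94.

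Levels of different genes were set side by side per kilobase of annotated exon. On this scale Stc2 stood at 11.7 ± 1.30 CPM per kb in ScxKO and 3.48 ± 0.302 in ScxWT libraries (SD, n = 4 each). Pappa followed at 0.763 ± 0.107 CPM per kb in ScxKO and 1.02 ± 0.138 in ScxWT libraries. Pappa2 had 0.192 ± 0.0200 CPM per kb in ScxKO and 0.172 ± 0.0166 in ScxWT libraries, and Stc1 0.128 ± 0.0531 and 0.183 ± 0.0854. The order was therefore Stc2, then Pappa, then Stc1 and Pappa2, whose ranges over libraries overlapped in both groups. Stc2 supplied 98.3% to 99.3% of the summed stanniocalcin level in ScxKO libraries and 93.6% to 98.2% in ScxWT libraries. Pappa supplied 79.7% ± 3.78 of the summed pappalysin level in ScxKO and 85.4% ± 2.31 in ScxWT libraries (SD, n = 4 each), with overlapping ranges.

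The summed level of the inhibitors over that of the proteases was 9.66, 11.6, 13.2 and 15.7 in ScxKO libraries 2, 3, 4 and 5, against 2.67, 3.88, 2.60 and 3.28 in ScxWT libraries 2, 3, 5 and 6. The lowest ScxKO ratio was above the highest ScxWT ratio. The means were 12.5 ± 2.55 in ScxKO and 3.11 ± 0.597 in ScxWT libraries (SD, n = 4 each), 4.03-fold higher in ScxKO. This ratio is built from the genes that were picked and from RNA alone, so it is no measure of protein or of protease activity. With the length of the longest transcript it was 16.0 in ScxKO and 3.94 in ScxWT libraries, 4.05-fold, because the exon union of Stc2 (5175 bases) is longer than its longest transcript (3982 bases).

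**Figure D2:**
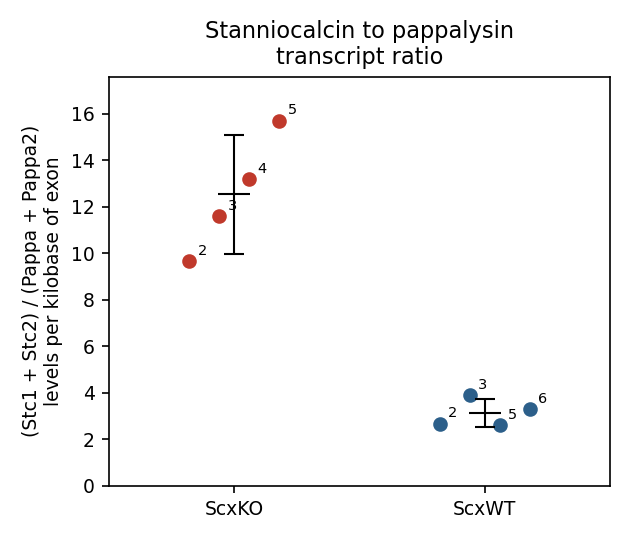
Summed level of Stc1 and Stc2 divided by that of Pappa and Pappa2, per kilobase of annotated exon (a ratio, linear axis from 0), with 1 labelled point per library, ScxKO left of ScxWT, and bars for the mean ± SD (n = 4 each). The ScxKO ratios run from 9.66 to 15.7 and the ScxWT ratios from 2.60 to 3.88.

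Among 19 genes (the 4 genes with the IGF ligands, receptors, binding proteins, Igfals and Prg2), Stc2 ranked 6th by level per kb in ScxKO libraries and 10th in ScxWT libraries. In ScxKO libraries it lay between Igfbp5 (17.5 CPM per kb) and Igf1r (10.5), and in ScxWT libraries just under Igfbp3 (3.57). The neighbours Stc2 and Igfbp3 in ScxWT libraries differed by less than the SD of either level. In ScxKO libraries Stc2 and Igf1r differed by less than the SD of Stc2 (1.30) but by more than that of Igf1r (0.530). Their order there holds for the exon union only. By longest transcript (11409 bases for Igf1r, 3982 for Stc2), Igf1r lies slightly above Stc2, which has 15.2 CPM per kb on that scale. Pappa stood under Igf1 in both groups, which had 1.01 CPM per kb in ScxKO and 2.11 in ScxWT libraries. Igfbp4, the best known substrate of the Pappa protein, was far above its protease, at 171 CPM per kb in ScxKO and 249 in ScxWT libraries. Prg2, which encodes a further inhibitor of the Pappa protein, was too low to be tested, at 0.130 CPM in ScxKO and 0.100 CPM in ScxWT libraries.

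**Figure D3:**
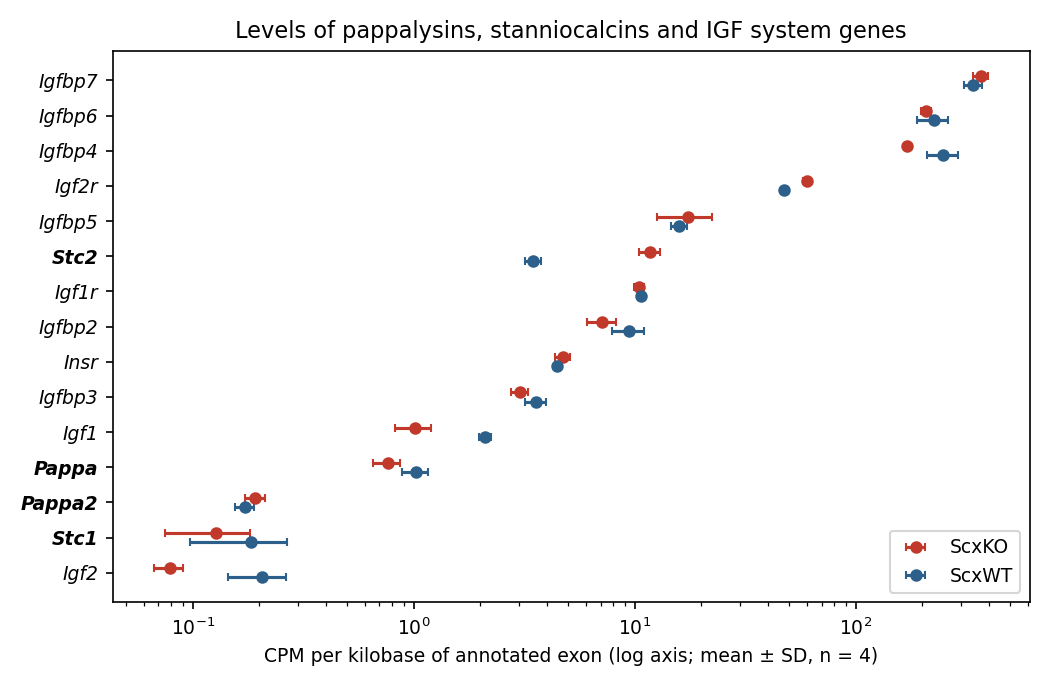
Level in CPM per kilobase of annotated exon (log axis; mean ± SD over 4 libraries) of the 4 genes, in bold, and the tested IGF ligands, receptors and binding proteins, with ScxKO above ScxWT in each row. Stc2 lies at 11.7 in ScxKO and 3.48 in ScxWT libraries, while Stc1, Pappa and Pappa2 lie near the low end beside Igf1 and Igf2.

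The IGF axis genes on which these proteins act were then tested. Of 38 listed genes, 33 were tested. Of these, 3 rose in ScxKO cells, where 14.0% of all genes rose, and 8 fell, where 14.5% of all genes fell (edgeR quasi-likelihood test, Benjamini-Hochberg adjusted p under 0.05 over all 13125 genes). The 11 called genes were 33.3% of the list, against 28.5% of all genes called. The list's median log2 change was -0.02, against -0.0053 for all genes tested. Leaving out ScxWT library 5 raised the count of rising genes to 6, with Igfbp7, Irs2 and Shc1 added to the first 3.

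Both ligands fell. Igf1 had 12.4, 10.5, 8.36 and 8.91 CPM in ScxKO libraries, against 22.04, 21.4, 18.96 and 21.3 CPM in ScxWT libraries. The groups were well apart, with a log2 change of -1.06 ± 0.10 (SE) and an edgeR adjusted p of 1.87e-06. Igf2, close to the lower limit of detection, averaged 0.451 ± 0.0676 CPM in ScxKO and 1.17 ± 0.342 CPM in ScxWT libraries (SD, n = 4 each), a log2 change of -1.40 ± 0.27 (edgeR adjusted p = 0.00121). Antisense genes overlap both, Igf1os and Igf2os, and Gm49394 overlaps Igf2 on its own strand, so their counts are uncertain to that extent.

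Of the receptors, Igf2r, which clears Igf2 from the cell surface, rose to 557 ± 21.4 CPM in ScxKO, against 439 ± 11.0 CPM in ScxWT libraries (SD, n = 4 each). Its log2 change was 0.35 ± 0.04 (edgeR adjusted p = 1.21e-05), with every ScxKO library above every ScxWT library, and the antisense gene Airn overlaps it. Igf1r, the signalling receptor, was not called, at 177 ± 8.90 CPM in ScxKO and 179 ± 5.52 CPM in ScxWT libraries (edgeR adjusted p = 0.784). Insr, the insulin receptor, was not called either, at 65.1 CPM in ScxKO and 60.9 CPM in ScxWT libraries (edgeR adjusted p = 0.201).

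Among the 4 binding proteins known as pappalysin substrates, 2 fell, where 14.5% of all genes fell, and the other 2 were not called. Igfbp4 had 795, 745, 755 and 729 CPM in ScxKO libraries, against 998, 1008, 1365 and 1026 CPM in ScxWT libraries 2, 3, 5 and 6. The groups did not overlap, also without the high ScxWT library 5, where the log2 change was -0.41, against -0.54 ± 0.08 with it (edgeR adjusted p = 1.19e-04). Igfbp2 averaged 13.1 ± 1.97 CPM in ScxKO and 17.4 ± 2.85 CPM in ScxWT libraries (SD, n = 4 each), with overlap through ScxKO library 5, and its log2 change was -0.41 (edgeR adjusted p = 0.0161). That call was lost without ScxKO library 2 (edgeR adjusted p = 0.0528) or ScxKO library 4 (edgeR adjusted p = 0.0540). It was also lost with numbers 2, 3 and 5 alone (edgeR adjusted p = 0.0637).

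Igfbp3, a substrate of the Pappa2 protein, was at 9.46 CPM in ScxKO and 11.2 CPM in ScxWT libraries and missed the threshold, with a log2 change of -0.25 ± 0.10 and an edgeR adjusted p of 0.0615. It passed without ScxKO library 4, ScxWT library 3 or ScxWT library 6 (edgeR adjusted p from 0.0437 to 0.0478). Igfbp5, cut by both proteases, was at 105 ± 29.1 CPM in ScxKO and 95.3 ± 7.95 CPM in ScxWT libraries (SD, n = 4 each; edgeR adjusted p = 0.492). Its log2 change of 0.13 became -0.06 without ScxKO library 4, which stood at 146 CPM. The substrates thus lay between -0.54 and 0.13 on the log2 scale. Stc2 lay at 1.75, a difference known when it was picked, so nothing is read from that contrast.

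The other binding proteins were not called. Igfbp6, which prefers Igf2, was at 230.1 ± 11.9 CPM in ScxKO and 251 ± 40.8 CPM in ScxWT libraries (SD, n = 4 each; edgeR adjusted p = 0.285). Its log2 change of -0.13 was 0.004 without ScxWT library 5. Igfbp7, a low-affinity binder, was at 445 ± 34.3 CPM in ScxKO and 410.2 ± 38.1 CPM in ScxWT libraries (SD, n = 4 each; edgeR adjusted p = 0.190), and was called higher without ScxWT library 5, with a log2 change of 0.19 and an edgeR adjusted p of 0.00285. Igfbp1 had no counts in any library, and Igfbpl1 was too low to be tested. Igfals, of the ternary complex in blood, had 1, 1, 0 and 1 counts in ScxKO libraries, against 6, 4, 5 and 3 counts in ScxWT libraries. It did not pass the filter on low counts, and without that filter it was called lower (edgeR adjusted p = 0.0237).

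Among other proteases that cut IGFBPs, Adamts1, a secreted metalloproteinase, fell to 612 CPM in ScxKO, against 881 CPM in ScxWT libraries (log2 change -0.53 ± 0.06, edgeR adjusted p = 8.54e-06). The lysosomal protease Ctsd was called higher at 1572 CPM in ScxKO and 1386 CPM in ScxWT libraries (log2 change 0.18, edgeR adjusted p = 0.0229). Leaving out ScxKO library 4 or 5, or ScxWT library 2, 3 or 6, ended the Ctsd call (edgeR adjusted p from 0.0531 to 0.0809). Of 14 receptor adaptors and kinases 3 were called, all lower. That share of 21.4% compares with 14.5% of all genes that fell and 28.5% of all genes called in either direction. The adaptor Irs1 had 119.5 CPM in ScxKO and 143 CPM in ScxWT libraries (edgeR adjusted p = 7.65e-04). The transcription factor Foxo1 had 30.3 CPM in ScxKO and 39.2 CPM in ScxWT libraries (edgeR adjusted p = 8.17e-05). The adaptor Grb10 had 317 and 347 CPM (edgeR adjusted p = 0.0229), a call that ended without ScxKO library 3 or 4 or ScxWT library 2 (edgeR adjusted p from 0.0532 to 0.0880). Igf2bp2, which binds Igf2 mRNA, rose to 98.3 ± 1.71 CPM in ScxKO, against 77.4 ± 1.01 CPM in ScxWT libraries (SD, n = 4 each; edgeR adjusted p = 8.16e-06).

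**Figure D4:**
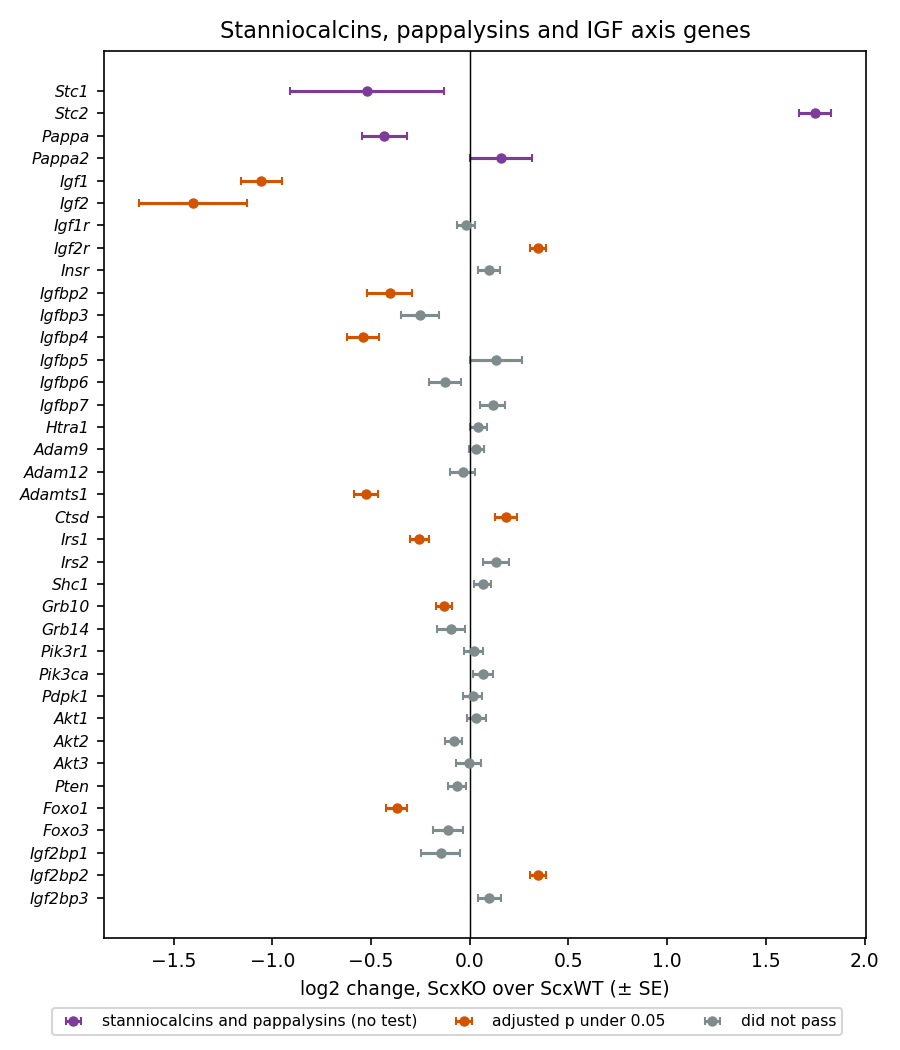
Log2 change of ScxKO over ScxWT with its SE from the fit of all 8 libraries, for the 4 genes (not tested) and the 33 tested IGF axis genes, coloured by whether the edgeR adjusted p was under 0.05. Stc2 lies at 1.75, Igf1 at -1.06 and Igf2 at -1.40, and every other listed gene lies between -0.54 and 0.35.

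Stanniocalcins are also known for effects on calcium and phosphate handling, so genes of that transport were counted. Of 14 listed genes 11 were tested, 3 rose and 3 fell, which is 54.5% of those tested against 28.5% of all genes, with a median log2 change of 0.07. Without ScxWT library 5 the called genes were 8, with Orai3 and Saraf added as higher. The calls over all genes rose too, to 2409 higher and 2310 lower. The phosphate importer Slc20a1 had 159 ± 4.67 CPM in ScxKO and 115 ± 5.18 CPM in ScxWT libraries (SD, n = 4 each), a log2 change of 0.47 ± 0.04 (edgeR adjusted p = 1.25e-06). Its relative Slc20a2 had 109 ± 2.89 CPM in ScxKO and 78.6 ± 2.30 CPM in ScxWT libraries (SD, n = 4 each), likewise a log2 change of 0.47 (edgeR adjusted p = 7.25e-07). Both importers were higher in every ScxKO library than in any ScxWT library. The calcium pump Atp2b4 fell to 16.6 ± 1.02 CPM in ScxKO, against 26.0 ± 0.617 CPM in ScxWT libraries (SD, n = 4 each), a log2 change of -0.64 ± 0.06 (edgeR adjusted p = 1.94e-06). The store calcium sensor Stim2 had 77.9 CPM in ScxKO and 94.4 CPM in ScxWT libraries (log2 change -0.28, edgeR adjusted p = 1.99e-04). The calcium-sensing receptor Casr and the channel Trpv5 had no counts in any library.

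Stc2 is known as a gene that hypoxia and the ATF4 stress response raise, so both lists were counted. Whether either response has a part in the level of Stc2 here was not tested. The lists were chosen with earlier results of these data known. Of 16 hypoxia genes, all tested, 7 rose, and the other 9 were not called, Hif1a and Vegfa among them. The called share was 43.8%, against 28.5% of all genes called and 14.0% of all genes that rose. The list's median log2 change was 0.17, against -0.0053 for all genes. Without ScxWT library 5 the called hypoxia genes were 9, with Egln1 and Ndrg1 added as higher, while the calls over all genes rose too. Ankrd37, an ankyrin repeat gene, had 20.1, 23.3, 22.2 and 22.1 CPM in ScxKO libraries, against 9.48, 10.7, 7.41 and 8.61 CPM in ScxWT libraries, a log2 change of 1.29 ± 0.10 (edgeR adjusted p = 1.65e-07). The protein-coding genes Ufsp2 and Lrp2bp overlap Ankrd37 on the other strand, so its counts are uncertain to that extent. The mitophagy receptor Bnip3 changed by 0.60 (edgeR adjusted p = 2.08e-05), the glucose transporter Slc2a1 by 0.45 (edgeR adjusted p = 8.27e-06) and the pyruvate dehydrogenase kinase Pdk1 by 0.41 (edgeR adjusted p = 2.12e-05) on the log2 scale.

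Of 17 genes of ATF4 and the unfolded protein response, all tested, 8 rose and 2 fell. The called share was 58.8%, against 28.5% of all genes, and the median log2 change was 0.15, against -0.0053 for all genes. Ddit3, a stress transcription factor, had 141 ± 9.34 CPM in ScxKO and 86.2 ± 6.40 CPM in ScxWT libraries (SD, n = 4 each), a log2 change of 0.71 ± 0.06 (edgeR adjusted p = 4.37e-07). The protein-coding gene Mars overlaps Ddit3 on the other strand, with the same limit on its counts as for Ankrd37. Chac1, which degrades glutathione, rose by 0.55 (edgeR adjusted p = 3.31e-05) and Phgdh, of serine synthesis, by 0.41 (edgeR adjusted p = 1.74e-05) on the log2 scale. The amino acid transporter Slc7a5 went the other way, with 163 CPM in ScxKO and 196 CPM in ScxWT libraries (log2 change -0.27, edgeR adjusted p = 0.00155). Of all named genes in these lists, none exceeded the log2 change of Stc2. That change was known when Stc2 was picked, so nothing is read from this.

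The genes most like each of the 4 in profile were found by the root mean square (RMS) difference of gene-centred log2 CPM over the 8 libraries, a description with no test. For Stc2, whose own profile had an RMS of 0.876, they were Rragd (0.156), a GTPase of amino acid sensing, the prolactin receptor Prlr (0.162), Mtus2 (0.172), Syngr1 (0.181) and the ubiquitin ligase Trim63 (0.214). Rragd had 20.7, 22.6, 25.0 and 27.6 CPM in ScxKO libraries 2, 3, 4 and 5, against 9.31, 8.19, 8.01 and 7.74 CPM in ScxWT libraries 2, 3, 5 and 6. Among the ScxKO libraries, Rragd was like Stc2 lowest in library 2 and highest in library 5. Among the ScxWT libraries the order differed, with Rragd highest in library 2 and Stc2 highest in library 3. The log2 changes of these 5 genes lay between 1.51 and 1.81. They were picked for a profile like that of Stc2, so changes of that size follow from the choice. For Pappa, with an RMS of 0.272, the nearest were Sorl1 (0.0807), Kcnk6, Nol4l, Bcam and Six5 (0.108). For Pappa2, with an RMS of 0.144, they were Chic1 (0.0491), Ndufaf2, Smyd3, Aftph and Skap2 (0.0565). Those of Stc1, Fancb (0.316), Ap1s3, Msantd1, H60c and Ppbp (0.378) were farther from it, beside its own RMS of 0.599.

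**Figure D5:**
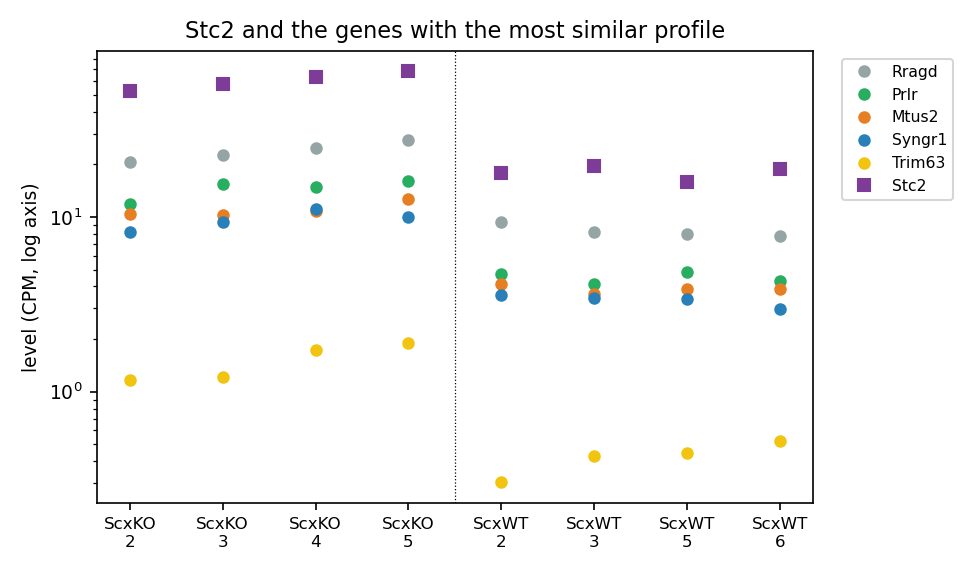
Level in CPM (log axis) of Stc2 and the 5 genes nearest to it in profile, 1 point per library, ScxKO left of ScxWT. Each gene is higher in all 4 ScxKO libraries than in any ScxWT library, with Stc2 from 52.5 to 68.2 CPM in ScxKO and from 15.9 to 19.5 CPM in ScxWT libraries. The 5 genes were picked for a profile like that of Stc2, so their gap between the groups follows from that choice.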

How the data were processed

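Total RNA of tail tendon fibroblasts in culture was sequenced in 4 ScxKO and 4 ScxWT libraries, grouped by their labelled genotype. A miRNeasy column kit with a DNase step gave the RNA, per the labels' protocols. STAR, FastQC and DESeq2 with mouse build mm10 are named, without roles or versions, per the submitters' processing notes. Counter, annotation and strandedness were not given in the sources used here.

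The authors deposited a table of raw whole-number counts, with 1 row per gene symbol. Reads in no feature (7.44% to 8.67%) and ambiguous reads (0.490% to 0.567%) were left out. The authors' deposited comparison table gives, per the file headers, a mean normalized count (a coverage-type signal), a log2 fold change, its standard error and a test statistic (scores), and raw and adjusted p-values. Its 2 columns with unclear group names were not used. Its sign was read against the counts.

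In R 4.3.3 and edgeR 4.0.16, genes passed filterByExpr (minimum count 10, total 15), which left 13125. Libraries were scaled with TMM factors. A quasi-likelihood model held group alone, p-values were adjusted by Benjamini-Hochberg at 0.05, and the steps were tested on simulated data. Each SE comes from the log2 change and the square root of its F value. Level per kilobase used GENCODE mouse release 21 on GRCm38, which held 24490 of 24982 symbols (98.0%). Promoters came from the RefSeq table, where 2 of the 4 genes matched, and only that of Stc2 is shown.

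The genes and lists were chosen with earlier results of these data known. Named were the 4 genes, Scx, every IGF ligand, receptor and IGFBP, up to 4 called genes with the smallest p from each other subgroup or list, and the 5 nearest profiles of each gene without Gm or Rik names. Alternatives were RLE and upper-quartile factors, no filter, 5 CPM in 4 libraries, DESeq2 1.42.0, limma-voom (limma 3.58.1), a replicate block, a stricter threshold, each library left out, and other transcript lengths, the longest coding transcript chosen after seeing the data.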

Additional observations from a re-analysis of the deposited data

Results flagged for a closer look

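Of 38 groups of 4 libraries checked (the 4 genes and the named IGF genes), 5 were flagged for a library far from the other 3. The rule was Dixon's criterion, which chance alone meets in about 1 of 20 groups. The ScxKO groups of Igfals and Igfbpl1 also meet it, at no more than 1 count in any library, and were not flagged. Stc1 stood at 0.871 CPM in ScxKO library 4, against 0.405 to 0.456 CPM in the other ScxKO libraries, a gap that rests on 15 counts. Igfbp2 stood at 16.1 CPM in ScxKO library 5, against 12.1 to 12.3 CPM in the others of its group. Igfbp4 stood at 1365 CPM in ScxWT library 5, against 998 to 1026 CPM, and Igfbp6 at 312 CPM in the same library, against 227 to 232 CPM. Insr stood at 63.8 CPM in ScxWT library 6, against 59.6 to 60.3 CPM. No cause of these values was tested.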

How the results depend on the processing

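The log2 change of Stc2 lay between 1.68 and 1.81 and that of Pappa between -0.52 and -0.35 under every alternative run. An adjusted p under 0.01 gave 1191 higher and 1143 lower genes, against 1842 and 1902. Upper-quartile factors gave 1539 higher and 2288 lower genes. Numbers 2, 3 and 5 alone gave 1239 lower genes. With single libraries left out, higher genes ranged from 1447 to 2409 and lower genes from 1427 to 2310, the highest of both without ScxWT library 5, and rising IGF axis genes from 2 to 6. DESeq2 gave 1787 higher and 1694 lower genes. Deviations of same-numbered libraries correlated at r = -0.0602, 0.156 and 0.0568, against -0.227 to 0.143 for differently numbered ones. So few pairs cannot decide whether the numbers pair libraries. The replicate block gave 1561 higher and 1676 lower genes, with the log2 change of Igf1r at 0.023 and Igfbp5 at -0.03 (log2), and Igfbp3, Igfbp6 and Insr called (edgeR adjusted p = 0.0112, 0.0352 and 0.0475), as was Psat1 (0.0390), while Ctsd, Grb10, Orai2 and Xbp1 were not (0.0783, 0.155, 0.0900 and 0.0873). With numbers 2, 3 and 5 alone Igf1r was at 0.026 and Igfbp5 at -0.024. With single libraries left out, Igf1r ranged from -0.041 to 0.014, Igfbp5 from -0.063 to 0.25 and Igfbp6 from -0.17 to 0.004. The cause was not tested. Neither Stc1 nor Pappa2 passed the filter of 5 CPM, and Stc1 gave no value with numbers 2, 3 and 5. Depth limits Stc1, with 42 counts over the ScxKO and 67 over the ScxWT libraries.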
